A study of Mus musculus with 6 samples.

Results

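Cathepsins are the proteases that break down proteins inside the lysosome, and 10 of their genes were followed here (*Ctsa*, *Ctsb*, *Ctsc*, *Ctsd*, *Ctsf*, *Ctsh*, *Ctsk*, *Ctsl*, *Ctss* and *Ctsz*), taken by symbol from the 56748 genes of the count table. The set was chosen by name and in part selected on measured values, the fold change of *Ctss* between WT and cKO, which was among the strongest of the higher genes, so the WT and cKO values of these genes are given as a description and without a test. All 10 had enough counts to be among the 17146 genes that were tested. RNA was sequenced in bulk from primary osteocytes, the cells embedded in bone matrix. They had been released by enzymes from long bones of 7-week-old mice after the marrow was flushed out. The released cells were then cultured for 7 days together with the digested bone pieces. The 3 WT libraries came from C57BL/6J mice, and the 3 libraries labelled cKO came from *Gsdmd* fl/fl; DMP1-Cre mice, in which Cre is driven by a *Dmp1* promoter and is meant to delete *Gsdmd*, the gene of the pore-forming protein gasdermin D, in osteocytes. All 6 cultures received lipopolysaccharide (LPS) at 10 ng/mL for 3 h and then aluminum hydroxide at 20 µg/mL for 3 h, which activates the inflammasome, so that no value compares stimulated with unstimulated cells. Nothing in the records says whether the 3 libraries of a genotype came from separate animals or cultures, so that errors and p-values measure the spread between these libraries and may be technical.

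Cathepsins are made as inactive proenzymes, are carried to the lysosome by receptors for mannose 6-phosphate or by sortilin, and become active when the acid of the lysosome releases their propeptide. Most are cysteine proteases of the papain family, while cathepsin D is an aspartic protease and cathepsin A a serine carboxypeptidase. In bone, cathepsin K is the enzyme with which osteoclasts cut the collagen of the matrix. Cathepsin S is best known from antigen-presenting cells, where it trims the invariant chain of MHC class II, and it keeps working at neutral pH.

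The depth was alike in the 6 libraries, with 39566835 to 49734046 counts each. *Gsdmd*, the targeted gene, had counts of 609, 699 and 549 in WT, below its counts of 885, 937 and 1045 where cKO was the label. It was thus higher where it should be deleted, the count pools all of its exons, and every direction given here rests on the labels. The female-specific RNA *Xist* was at 0 to 4 counts in WT and at 44817 to 51216 in cKO, and the Y-linked genes *Ddx3y*, *Eif2s3y*, *Kdm5d* and *Uty* had 0 counts in every cKO library, so that sex and genotype label cannot be told apart. Among the defining markers of osteocytes *Sost* had 0 counts in all libraries, *Dmp1* 0 to 6 and *Mepe* 0 to 2, while *Pdpn*, *Fbln7* and *Ackr3* were the 3 of 8 listed osteocyte markers with enough counts to be tested.

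The 250 bases before the annotated start are shown for 5 cathepsin genes, to set the promoters of the 2 genes with the steepest difference (*Ctss* and *Ctsc*) and of *Ctsk*, the neighbour of *Ctss* and 1 of the 3 lower genes, beside those of 2 genes of the general lysosomal set (*Ctsd* and *Ctsa*). The sequences are RefSeq's on build GRCm38.p6, printed 5′ to 3′ on the strand of the gene, and they are separate from the mm39 coordinates of the count table used further down. A promoter sequence was found for 8 of the 10 genes, not for *Ctsb* and *Ctsh*. *Ctsa* has 2 such stretches, of which the one with a motif is shown. Capitals mark CACGTG in *Ctsd* and *Ctsa*, the letters of the E-box that MiT/TFE transcription factors read at lysosomal genes. In *Ctss*, *Ctsk* and *Ctsc* they mark GAGGAA, or TTCCTC where it lies on the other strand, the core of the motif of PU.1, a transcription factor of the myeloid lineage.
Ctsd, chr7:142387828-142388077, minus strand: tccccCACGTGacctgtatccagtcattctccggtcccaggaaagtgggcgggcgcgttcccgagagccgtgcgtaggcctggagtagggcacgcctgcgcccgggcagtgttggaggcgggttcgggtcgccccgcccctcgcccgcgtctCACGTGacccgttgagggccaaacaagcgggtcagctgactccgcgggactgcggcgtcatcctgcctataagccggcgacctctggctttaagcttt
Ctsa, chr2:164833523-164833772, plus strand: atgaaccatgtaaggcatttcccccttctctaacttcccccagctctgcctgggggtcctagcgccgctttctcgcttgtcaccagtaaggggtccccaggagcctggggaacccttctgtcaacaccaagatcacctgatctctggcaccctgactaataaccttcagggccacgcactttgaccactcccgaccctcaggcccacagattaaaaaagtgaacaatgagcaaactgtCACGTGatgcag
Ctss, chr3:95526536-95526785, plus strand: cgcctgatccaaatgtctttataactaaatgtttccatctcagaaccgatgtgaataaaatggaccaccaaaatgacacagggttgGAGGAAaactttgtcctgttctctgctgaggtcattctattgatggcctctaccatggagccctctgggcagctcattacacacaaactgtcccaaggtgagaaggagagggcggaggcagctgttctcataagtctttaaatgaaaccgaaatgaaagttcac
Ctsk, chr3:95498960-95499209, plus strand: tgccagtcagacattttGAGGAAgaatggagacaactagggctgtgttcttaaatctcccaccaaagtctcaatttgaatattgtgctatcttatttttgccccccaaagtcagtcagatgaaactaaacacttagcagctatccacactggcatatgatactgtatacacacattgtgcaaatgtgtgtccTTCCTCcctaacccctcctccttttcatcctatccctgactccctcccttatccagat
Ctsc, chr7:88277835-88278084, plus strand: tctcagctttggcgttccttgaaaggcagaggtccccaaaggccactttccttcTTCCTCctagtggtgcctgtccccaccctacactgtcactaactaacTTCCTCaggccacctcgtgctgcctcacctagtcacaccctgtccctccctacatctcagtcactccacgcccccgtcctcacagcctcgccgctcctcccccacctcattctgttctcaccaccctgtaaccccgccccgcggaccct

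The letters CACGTG were found in 4 of the 8 cathepsin genes with a promoter sequence, *Ctsd*, *Ctsa*, *Ctsl* and *Ctsf*, and in 6.02% of all 32851 promoter stretches of the same length. In *Ctsd* they began 245 and 98 bases before the start, and in *Ctsa* 12 bases before it. The longer form TCACGTG, which contains CACGTG, was found in *Ctsd* and *Ctsa* and in 3.13% of all stretches. GAGGAA was found in *Ctss*, *Ctsk* and *Ctsc*, and in 23.3% of all stretches, on either strand. In *Ctss* it began 164 bases before the start. TATAAA was found in *Ctss* on the other strand, where the printed strand reads TTTATA, beginning 233 bases before the start, and in 12.4% of all stretches, and TGANTCA, the AP-1 motif, in none of the 8 genes and in 6.75% of all stretches. The genes that hold CACGTG include *Ctsf*, which was lower in the libraries labelled cKO, and those that hold GAGGAA include *Ctsk*, which was lower, beside *Ctss* and *Ctsc*, which were higher. A match of letters is a description of the sequence and does not show that a factor binds there.

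Levels of different genes were compared as transcripts per 1000000 (TPM), in which counts are divided by gene length. In WT the order was *Ctsd* (1681 ± 61.9 TPM), *Ctsb* (1090 ± 32.7), *Ctsz* (678.8 ± 21.5), *Ctsl* (576.4 ± 7.90), *Ctsa* (312.9 ± 15.8), *Ctsk* (246.3 ± 11.0), *Ctss* (216.2 ± 8.57), *Ctsh* (144.6 ± 2.30), *Ctsf* (45.2 ± 1.33) and *Ctsc* (7.65 ± 0.555, SD, n = 3 each), a span of 220-fold. No neighbours in this order overlapped between their WT libraries. In the libraries labelled cKO the order was *Ctsd* (3375 ± 71.3 TPM), *Ctsb* (2137 ± 38.3), *Ctss* (1894 ± 35.0), *Ctsz* (947.0 ± 19.4), *Ctsl* (943.0 ± 29.7), *Ctsa* (372.1 ± 9.28), *Ctsk* (181.7 ± 17.1), *Ctsh* (94.3 ± 1.61), *Ctsc* (62.6 ± 2.69) and *Ctsf* (33.7 ± 0.540, SD, n = 3 each). *Ctsz* and *Ctsl* overlapped there and could not be ranked, while the other neighbours did not overlap. *Ctss* moved from place 7 to place 3, and *Ctsc* from place 10 to place 9, ahead of *Ctsf*. These places rest on the deposited gene lengths. Without division by length *Ctsb* lay above *Ctsd* in both genotypes, and *Ctsl* above *Ctss* in the libraries labelled cKO. Among all genes of the table ranked by TPM, *Ctss* moved from place 680 to 54, *Ctsd* from 63 to 25 and *Ctsk* from 596 to 823.

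**Figure D1:**
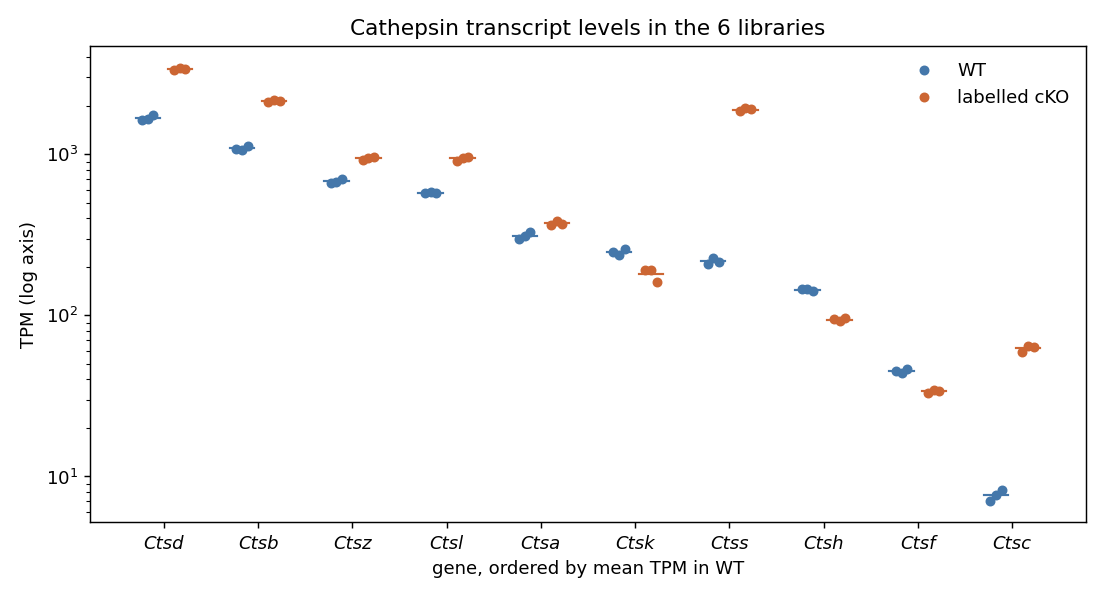
Transcript levels of the 10 cathepsins in each library, in TPM on a log axis, with WT in blue and the libraries labelled cKO in orange. Each point is 1 library and each line a mean of 3, and *Ctss* and *Ctsc* show the widest distance between the genotypes, with *Ctss* below *Ctsk* in WT and just below *Ctsb* in the libraries labelled cKO.

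To compare the genotypes gene by gene, counts were scaled for library size and composition by edgeR's TMM method and given as counts per 1000000 (CPM). Fold changes and standard errors come from 1 fit across the 17146 tested genes. A gene is said to have passed when edgeR's quasi-likelihood test, with p-values adjusted by Benjamini-Hochberg over all tested genes, gave an adjusted p below 0.05, and to be called when its log2 fold change was also at least 1 in size. Of the 10 cathepsins 7 lay above that limit for higher values, where 20.1% of all tested genes did, and 3 for lower values, where 19.2% did. With the limit on the fold 4 were called higher (*Ctss*, *Ctsc*, *Ctsd* and *Ctsb*), beside 6.56% of all tested genes, and 0 lower, beside 4.64%. The WT and cKO libraries did not overlap for any of the 10, with 7 higher and 3 lower. Among all tested genes, 25.3% were higher without overlap and 23.9% lower. Since this contrast helped to choose the set, nothing is read from these counts. The cathepsins varied little between replicates, with a biological coefficient of variation of 4.04% to 5.66%, where the value shared by all genes was 8.36%.

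*Ctss*, on chromosome 3 from 95434097 to 95463714 (mm39, plus strand), showed the steepest difference. It measured 73.4, 80.1 and 75.1 CPM in the WT libraries and 668.5, 695.9 and 686.0 CPM in those labelled cKO. The lowest cKO library thus lay far above the highest WT library, and the libraries of a genotype were close together. The means were 76.2 ± 3.48 and 683.5 ± 13.9 CPM (SD, n = 3), or 8.97-fold, with a log2 fold change of 3.16 (standard error 0.044). Leaving out any 1 library kept it between 3.12 and 3.19.

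*Ctsc* encodes cathepsin C, or dipeptidyl peptidase 1, which removes dipeptides from the amino end of proteins and thereby activates the serine proteases of leukocyte granules. It lies on chromosome 7 from 87927293 to 87960096 on the plus strand. It was the least abundant of the 10 in WT, at 10.6, 11.6 and 12.3 CPM, and measured 91.7, 99.6 and 98.6 CPM in the libraries labelled cKO. With means of 11.5 ± 0.841 and 96.6 ± 4.31 CPM (SD, n = 3), its log2 fold change of 3.07 (standard error 0.065), or 8.39-fold, was close to that of *Ctss*, although its CPM was far lower in both genotypes.

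*Ctsd* and *Ctsb*, the most abundant cathepsins, differed by about the same factor. *Ctsd*, the aspartic protease, measured 992.9, 1018.8 and 1064.8 CPM in WT and 2065.3, 2160.9 and 2099.2 CPM in the libraries labelled cKO, 1025 ± 36.4 against 2108 ± 48.5 CPM (SD, n = 3). Its log2 fold change was 1.04 (standard error 0.035). *Ctsb*, whose product is both an endopeptidase and a carboxydipeptidase, measured 1681, 1689 and 1765 CPM in WT and 3371, 3507 and 3429 CPM in the libraries labelled cKO, 1711 ± 46.3 against 3436 ± 68.0 CPM (SD, n = 3). With a log2 fold change of 1.01 (standard error 0.032) it stood just inside the limit of 1. It fell below that limit, leaving 3 cathepsins called, with DESeq2 and RLE scaling, at 0.99 each, and without WT replicate 1, WT replicate 2 or cKO replicate 2, at 0.98, 0.99 and 0.99. *Ctsl*, at 0.74, was the nearest on the outside.

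*Ctsl* encodes cathepsin L, a broad endopeptidase of the lysosome. It measured 958.5, 992.9 and 960.9 CPM in WT and 1567, 1641 and 1670 CPM in the libraries labelled cKO, 970.8 ± 19.2 against 1626 ± 53.0 CPM (SD, n = 3), with a log2 fold change of 0.74 (standard error 0.034). *Ctsz* encodes cathepsin Z, a carboxypeptidase that removes single residues. It measured 245.7, 254.2 and 261.6 CPM in WT and 353.6, 365.6 and 368.5 CPM in the libraries labelled cKO, 253.8 ± 7.99 against 362.6 ± 7.89 CPM (SD, n = 3), with a log2 fold change of 0.51 (standard error 0.040). *Ctsa* encodes cathepsin A, which also protects the lysosomal sialidase and beta-galactosidase from breakdown. It showed the smallest difference, 363.9, 382.5 and 402.2 CPM in WT against 457.6, 480.5 and 460.5 CPM, with means of 382.9 ± 19.2 and 466.2 ± 12.5 CPM (SD, n = 3) and a difference of 0.28 on the log2 scale (standard error 0.042).

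The 3 genes that were lower in the libraries labelled cKO were *Ctsh*, *Ctsk* and *Ctsf*, and none reached the limit on the fold. *Ctsh* encodes cathepsin H, an aminopeptidase. It measured 170.4, 170.8 and 165.3 CPM in WT and 112.6, 110.9 and 114.5 CPM in the libraries labelled cKO, 168.9 ± 3.07 against 112.7 ± 1.81 CPM (SD, n = 3), with a log2 fold change of -0.58 (standard error 0.042). *Ctsf* encodes cathepsin F, an endopeptidase. It measured 58.6, 58.0 and 60.8 CPM in WT and 44.3, 45.9 and 45.4 CPM in the libraries labelled cKO, 59.1 ± 1.49 against 45.2 ± 0.804 CPM (SD, n = 3), with a log2 fold change of -0.39 (standard error 0.051).

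*Ctsk*, the collagenase of osteoclasts, measured 96.0, 93.1 and 100.8 CPM in WT and 77.1, 76.8 and 65.0 CPM in the libraries labelled cKO. Its means were 96.6 ± 3.86 and 73.0 ± 6.87 CPM (SD, n = 3) and its log2 fold change was -0.41 (standard error 0.062). The cKO libraries were less alike for *Ctsk* than for any other cathepsin, with a coefficient of variation of 9.41% against 1.60% to 4.45% for the other 9, and cKO replicate 3 lay below the other 2. Without that library the log2 fold change was -0.33. *Ctss* and *Ctsk*, neighbours on chromosome 3, therefore stood on opposite sides, and the ratio of *Ctss* to *Ctsk* in TPM was 0.878 in WT and 10.4 in the libraries labelled cKO.

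Summed over the 10 genes, cathepsin transcripts made up 4890, 4955 and 5151 TPM in the WT libraries and 9850, 10222 and 10051 TPM in those labelled cKO, means of 4999 ± 136 and 10041 ± 186 TPM (SD, n = 3) and a ratio of 2.01. Summed CPM, which weigh long transcripts more, gave a ratio of 1.89. *Ctsd* held 33.6% of the summed TPM in both genotypes, and *Ctsb* 21.8% in WT and 21.3% in the libraries labelled cKO. The share of *Ctss* was 4.33% ± 0.206 in WT and 18.9% ± 0.048 in the libraries labelled cKO (SD, n = 3). The shares of *Ctsz* (13.6% to 9.43%), *Ctsl* (11.5% to 9.39%), *Ctsa* (6.26% to 3.71%), *Ctsk* (4.93% to 1.81%) and *Ctsh* (2.90% to 0.939%) were smaller in the libraries labelled cKO, although *Ctsz*, *Ctsl* and *Ctsa* were higher there in absolute level. Of the difference of 5042 TPM between the means, *Ctsd* made up 33.6%, *Ctss* 33.3%, *Ctsb* 20.8%, *Ctsl* 7.27% and *Ctsz* 5.32%. In TPM *Ctss*, with a small share in WT, thus added about as much as *Ctsd*. Of the summed CPM, not divided by length, *Ctss* held 1.60% in WT and 7.59% in the libraries labelled cKO. For *Ctsd* these CPM shares were 21.6% and 23.4%.

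**Figure D2:**
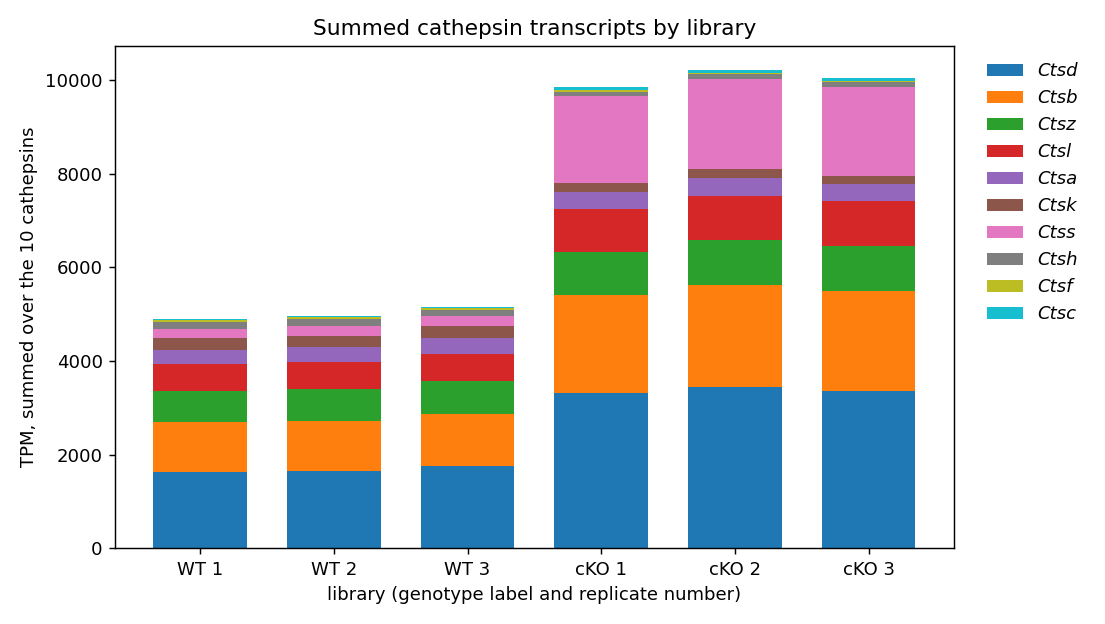
Summed TPM of the 10 cathepsins in each library, stacked by gene, with the replicate number and genotype label on the horizontal axis. The WT bars reach 4890 to 5151 TPM and the bars of the libraries labelled cKO 9850 to 10222 TPM, and the *Ctss* segment widens from 4.33% to 18.9% of the bar.

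*Ctsk* and *Ctss* lie head to tail on the plus strand of chromosome 3, *Ctsk* from 95406567 to 95416673 and *Ctss* from 95434097 to 95463714 (mm39), with 17.4 kb between them and 1 other listed gene in the gap. Genes whose start lay within 250 kb of either start were compared, 30 in all, of which 20 were tested. Of these 7 passed higher, 3 passed lower and 10 did not pass, beside 20.1% higher and 19.2% lower among all tested genes. The median log2 fold change was 0.15, beside 0.0077 over all tested genes. None of these neighbours came near the fold of *Ctss*. The nearest was *Hmgb1-ps5*, a pseudogene that lies inside *Ctss* on the same strand and had 1 to 9 counts in WT and 10 to 27 counts where cKO was the label. Its log2 fold change in the edgeR test was 2.02 ± 0.68 (standard error), with an adjusted p of 0.025.

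*Mcl1*, which encodes an anti-apoptotic BCL2 family protein and starts 132 kb downstream of the *Ctss* start, rose from 217.4 ± 12.1 CPM to 456.6 ± 7.25 CPM (SD, n = 3). This was 1.07 on the log2 scale with a standard error of 0.044 (adjusted p = 1.39e-12, edgeR). *Golph3l* rose by 0.78 on the log2 scale, and *Ensa* (0.28), *Mindy1* (0.25), *Setdb1* (0.15) and *Cers2* (0.13) also passed higher. *Ecm1*, an extracellular matrix protein, passed lower at -0.40, as did *Adamtsl4* at -0.13. *Rps10-ps1*, a pseudogene, passed lower at -0.91, but WT replicate 3, at 10.4 CPM, stood apart from the other WT libraries at 4.73 and 3.30 CPM, and the genotypes overlapped. *Arnt*, which ends just before *Ctsk* begins, had a log2 fold change of -0.05 and did not pass (adjusted p = 0.45). Several of these calls were weak: without WT replicate 1, cKO replicate 2 or cKO replicate 3 only 4 neighbours passed higher, and without cKO replicate 3 only 1 passed lower.

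**Figure D3:**
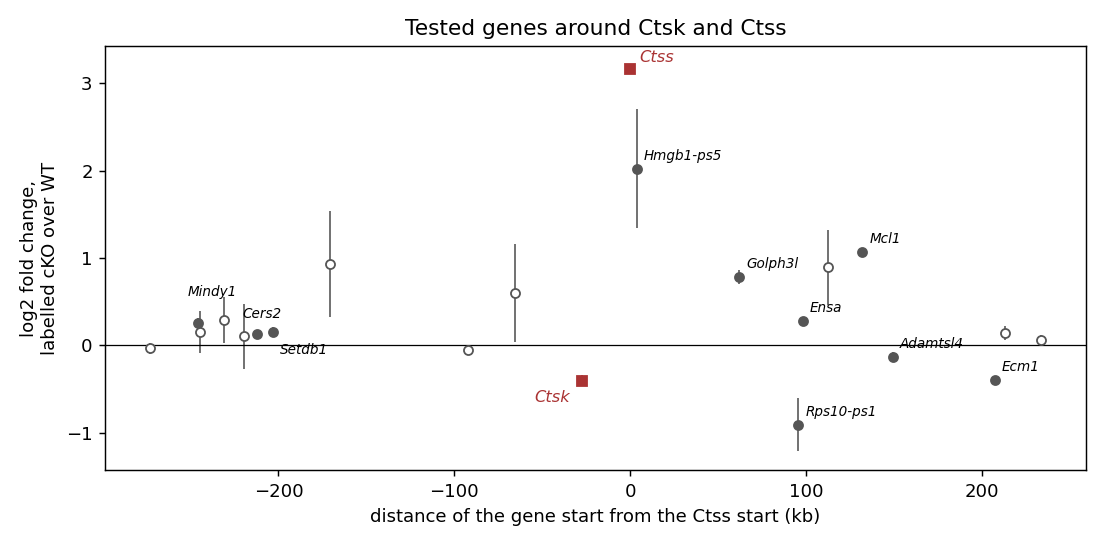
Log2 fold change, labelled cKO over WT, of the tested genes around *Ctsk* and *Ctss* against the distance of the gene start from the *Ctss* start in kb, with bars for the standard error. Filled points passed the test, open points did not and the red squares are the 2 cathepsins, with *Ctss* at 3.16 above every neighbour and *Ctsk* at -0.41 below the zero line.

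The genes whose pattern over the 6 libraries was most like that of *Ctss* were searched among all tested genes with a count in every library, by the root mean square difference of centred log2 CPM. They were *Ms4a6d* (0.051), *Csf1r* (0.067), *Ctsc* (0.079), *Stab1* (0.091) and *Mpeg1* (0.092). *Csf1r* encodes the receptor of the macrophage growth factor M-CSF, *Stab1* a scavenger receptor and *Mpeg1* a pore-forming protein of macrophages. *Csf1r* measured 26.1 ± 1.63 and 234.9 ± 8.39 CPM (SD, n = 3), and its log2 fold change of 3.17 stood beside 3.16 for *Ctss*. Another cathepsin, *Ctsc*, was thus among the 5 nearest of the genes searched. The step between the genotypes, which helped to choose the set, is part of this pattern. Nearness to *Ctss* therefore requires a similar fold change. The genes most like *Ctsk* were *Adam23* (0.034), *Map3k4* (0.040), *Gm15459* (0.042), *Ppic* (0.043) and *Rrm1* (0.045), with log2 fold changes from -0.39 to -0.34. Genes were searched for likeness, so these values carry no test.

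Markers of macrophages, cells with many lysosomes, moved in the same direction as *Ctss* and *Ctsc*. Of 20 listed markers 18 had enough counts, and all 18 passed higher and were called, beside 20.1% and 6.56% of all tested genes. Log2 fold changes of these markers ran from 1.73 to 4.42 with a median of 2.99, beside 0.0077 over all tested genes. Their summed level was 1283 to 1443 CPM in WT and 6919 to 7245 CPM in those labelled cKO. *Ms4a7* rose by 3.80, *Csf1r* by 3.17, *C1qc* by 3.32 and *Lyz2* by 2.20 on the log2 scale. None of the 20 markers was at 0 counts in all libraries, and *Cx3cr1* and *Cd163* had too few counts for the test. The difference of *Ctss* (3.16) and *Ctsc* (3.07) lay within the range of these markers, while that of the other 5 higher cathepsins (0.28 to 1.04) lay below its lower end of 1.73. The part of these cells in the cathepsin values was not tested. In bulk RNA a different number of cells of one type and a different amount of RNA in each cell cannot be told apart.

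Of 10 neutrophil markers 3 were tested and passed higher, with a summed level of 9.31 to 12.7 CPM in WT and 28.2 to 32.4 CPM in cKO, while *S100a9* and *Retnlg* had 0 counts in all libraries. No B cell marker had enough counts, and *Ms4a1* was at 0. Among the tested markers of osteoblasts 2 passed higher and 4 lower, of fibroblasts 4 higher and 4 lower, of endothelial cells 1 higher and 3 lower, and of osteocytes 0 higher and 2 lower. Over all tested genes 20.1% passed higher and 19.2% lower. The part of these cell types in the cathepsin values was not tested either.

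Osteoclasts are the cells best known for cathepsin K, and the other genes of their resorption machinery lay on both sides of 0. Of 14 tested genes 8 passed higher, 3 lower and 3 did not pass, beside 20.1% higher and 19.2% lower over all tested genes. The median log2 fold change was 0.30. *Tnfrsf11a*, the receptor RANK, rose from 1.68 ± 0.256 to 16.0 ± 1.53 CPM (SD, n = 3). *Atp6v0d2*, a proton pump subunit, rose from 21.3 ± 2.00 to 76.6 ± 10.2 CPM. *Tcirg1*, another subunit of that pump, rose from 64.8 ± 3.38 to 156.6 ± 2.56 CPM. *Clcn7*, the chloride transporter of the ruffled border, rose from 62.8 ± 1.96 to 101.0 ± 3.97 CPM. *Mmp9*, a gelatinase, fell from 21.9 ± 3.70 to 3.05 ± 0.609 CPM, *Car2*, carbonic anhydrase 2, from 2.30 ± 0.435 to 0.106 ± 0.094 CPM, and *Itgb3*, an integrin, from 60.6 ± 2.74 to 42.2 ± 4.54 CPM. *Ctsk*, at -0.41, lay on the side of *Mmp9*, *Car2* and *Itgb3* and opposite the 8 genes that passed higher.

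Beyond the 10 genes, the table lists 13 other genes of cathepsin name, and 11 of these had 0 counts in all libraries, among them *Ctse*, *Ctsg* and the placental group (*Ctsj*, *Ctsm*, *Ctsq*, *Ctsr*, *Cts3*, *Cts6*, *Cts7*, *Cts8*). *Ctso* rose from 19.3 ± 1.18 CPM to 34.5 ± 0.754 CPM (SD, n = 3). This was 0.84 on the log2 scale with a standard error of 0.071 (adjusted p = 3.12e-08, edgeR). *Ctsw*, known from cytotoxic lymphocytes, measured 2.29 ± 0.517 and 1.40 ± 0.287 CPM and did not pass (log2 fold change -0.70, adjusted p = 0.0538). It passed lower in 6 of the other settings that were tried, so its call depends on the processing.

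The list of other lysosomal proteases also holds relatives without protease activity. Of its 8 tested genes 5 passed higher, 1 lower and 2 did not pass, beside 20.1% higher and 19.2% lower over all tested genes. The median log2 fold change was 0.31. *Lgmn*, the gene of legumain, which cuts the proforms of several cathepsins, had 4743, 5678 and 4325 counts in WT and 11328, 11625 and 12181 in the libraries labelled cKO. It rose from 110.4 ± 4.61 CPM to 276.6 ± 13.7 CPM (SD, n = 3), which was 1.32 on the log2 scale with a standard error of 0.048 (adjusted p = 2.52e-13, edgeR). *Napsa*, an aspartic protease related to cathepsin D, rose from 0.439 ± 0.242 to 10.6 ± 0.670 CPM, and *Dpp7* (0.57) and *Tpp1* (0.33) rose less. *Tinagl1*, which resembles cathepsin B but has no protease activity, fell from 47.9 ± 2.59 to 9.72 ± 1.36 CPM.

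Cathepsins are held in check by cystatins, stefins and related inhibitors. The list of inhibitors also holds relatives and broad protease inhibitors that are not specific to cathepsins. It had 27 genes, of which 12 were tested. Of these 5 passed higher, 4 lower and 3 did not pass, beside 20.1% higher and 19.2% lower over all tested genes. The median log2 fold change was 0.33. *Cst3*, the secreted cystatin C, was the most abundant, and its counts were 8959, 10540 and 6665 in WT and 14661, 14052 and 15880 in the libraries labelled cKO. It rose from 194.4 ± 20.7 to 350.5 ± 2.60 CPM (SD, n = 3), and *Cstb*, the intracellular stefin B, from 63.9 ± 8.15 to 106.0 ± 0.756 CPM, which was 0.85 and 0.73 on the log2 scale (edgeR's adjusted p was 1.58e-09 for *Cst3* and 1.4e-07 for *Cstb*). Both differences were larger than that of *Ctsz* (0.51) or *Ctsa* (0.28) and smaller than that of *Ctsb* (1.01). *Ctla2a*, whose product resembles a cathepsin propeptide, rose by 1.36 on the log2 scale, and *Ctla2b* was at least 8.17-fold higher, against a floor of 3 counts per library in WT, or at least 4.09-fold against a floor of 6.

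*A2m*, the broad protease trap alpha-2-macroglobulin, had 124 to 205 counts in WT and 0 in every library labelled cKO, at least 48.9-fold lower, or 24.5-fold with the floor at 6 counts. *Fetub* (-1.69), *Stfa3* (-1.49) and *Cst6* (-0.69), the last of which encodes cystatin M, also passed lower. The median of the inhibitors is the same with *A2m* and *Ctla2b* set at their bounds. The counts of the lower genes were small, and only 2 inhibitors passed lower without WT replicate 1 or cKO replicate 3.

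Of 13 tested genes that carry cathepsins to the lysosome, 9 passed higher, 2 lower and 2 did not pass. Among all tested genes 20.1% passed higher and 19.2% lower. The median log2 fold change of the 13 was 0.23. *Sort1*, the gene of sortilin, rose from 9.66 ± 0.918 to 20.6 ± 1.69 CPM (SD, n = 3) and was the 1 gene called. *Gnptab* and *Nagpa*, the enzymes that build the mannose 6-phosphate tag, rose by 0.41 and 0.65 on the log2 scale, and the adaptor *Gga2* by 0.37. *Igf2r*, a receptor of that tag, fell from 425.2 ± 18.9 to 386.1 ± 11.0 CPM, a log2 fold change of -0.14, and the retromer subunit *Vps26b* had one of -0.26.

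Other lysosomal hydrolases and membrane proteins gave a similar picture, with 18 of 24 passed higher, 3 lower and 3 not passed. Over all tested genes 20.1% passed higher and 19.2% lower. The median log2 fold change of this list was 0.22. *Cd68*, which is also on the macrophage list, rose by 2.47 on the log2 scale, *Lipa*, the acid lipase, by 1.48, *Psap*, the saposin precursor, by 0.72, and *Grn*, progranulin, by 0.90. *Gaa* (-0.25) and *Glb1* (-0.15), which encode glycosidases, were among those that passed lower. *Ctss*, *Ctsc*, *Ctsd* and *Ctsb* lay above the median of this list, and so did *Ctsl*, *Ctsz* and *Ctsa* (0.28). *Ctsh* (-0.58), *Ctsk* (-0.41) and *Ctsf* (-0.39) lay below that median, and also below the lowest value of the list, -0.25.

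MiT/TFE transcription factors drive lysosomal genes through the E-box printed above. *Tfec* rose from 2.32 ± 0.589 to 9.24 ± 0.301 CPM (SD, n = 3), *Tfeb* from 5.31 ± 0.192 to 11.2 ± 1.72 CPM and *Tfe3* from 63.7 ± 2.79 to 75.2 ± 0.582 CPM, while *Mitf* measured 36.5 ± 2.56 and 37.6 ± 1.71 CPM and did not pass (adjusted p = 0.658, edgeR). The most abundant of the 4, *Tfe3*, showed a log2 fold change of 0.24, and the 2 with the larger changes, *Tfec* (1.99) and *Tfeb* (1.07), were at low levels.

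The 9 listed partners of cathepsin S in antigen presentation summed to 60.6 to 65.7 CPM in WT and 46.0 to 50.2 CPM in the libraries labelled cKO. *Cd74*, the invariant chain that cathepsin S cuts, rose from 0.546 ± 0.263 to 1.49 ± 0.208 CPM (SD, n = 3), at 15 to 32 counts in WT and at 57 to 69 in cKO, far below the 683.5 CPM of *Ctss*. *H2-DMb1* rose by 0.42 on the log2 scale and *H2-DMb2* was at least 7.42-fold higher, against a floor of 3 counts per library, or 3.71-fold against 6. *H2-Ab1*, a chain of MHC class II, fell from 19.3 ± 1.43 to 3.52 ± 0.479 CPM. In all 3 of 7 tested genes of this pathway passed higher, 1 lower and 3 did not pass. The shares over all tested genes were 20.1% higher and 19.2% lower. The median log2 fold change of the pathway was -0.08.

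The serine proteases that cathepsin C activates were scarce, with 5 of 14 tested, and none passed higher where *Ctsc* was 8.39-fold higher. *Mcpt8*, a protease of basophils, fell from 20.1 ± 4.48 to 4.28 ± 0.065 CPM (SD, n = 3), with a log2 fold change of -2.23 (adjusted p = 6.17e-10, edgeR), and *Gzmc* (-1.13), *Prtn3* (-1.16) and *Prss57* (-0.69) also passed lower. *Gzmm* had a log2 fold change of -1.31 and did not pass (adjusted p = 0.155). The median log2 fold change of the 5 tested genes was -1.16. Over all tested genes 20.1% passed higher and 19.2% lower. *Elane*, neutrophil elastase, had 0 to 10 counts, and *Ctsg*, the serine protease cathepsin G, had 0 in all libraries.

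**Figure D4:**
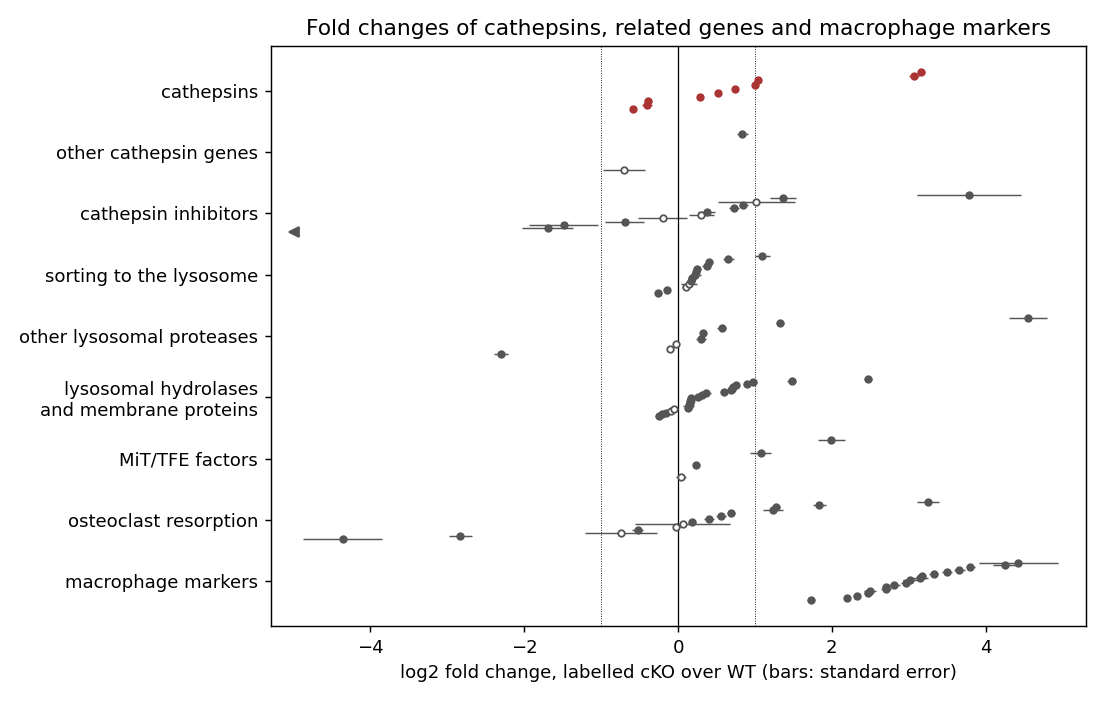
Log2 fold change, labelled cKO over WT, with standard errors, of the tested genes of each list, the 10 cathepsins in red. Filled points passed the test and open points did not, the dotted lines mark the limit of 1, and the triangle at the left edge is *A2m*, whose fitted value lies beyond the axis. The macrophage markers all lie at 1.73 or above, where *Ctss* and *Ctsc* lie too, while the sorting genes lie between -0.26 and 1.10.

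Apart from *Ctss* (ENSMUSG00000038642) and *Ctsk* (ENSMUSG00000028111), the cathepsin genes are spread over the genome, *Ctsc* (ENSMUSG00000030560) and *Ctsd* both on chromosome 7 and *Ctsa* and *Ctsz* both on chromosome 2. In the coordinates of the count table (mm39) there are *Ctsd* (ENSMUSG00000007891) on chromosome 7 from 141929648 to 141941775 (minus strand), *Ctsb* (ENSMUSG00000021939) on chromosome 14 from 63359911 to 63383372 (plus strand) and *Ctsl* (ENSMUSG00000021477) on chromosome 13 from 64507151 to 64518704 (minus strand). The others are *Ctsz* (ENSMUSG00000016256) on chromosome 2 from 174269286 to 174280832 (minus strand), *Ctsa* (ENSMUSG00000017760) on chromosome 2 from 164674793 to 164682952 (plus strand), *Ctsh* (ENSMUSG00000032359) on chromosome 9 from 89936205 to 89958142 (plus strand) and *Ctsf* (ENSMUSG00000083282) on chromosome 19 from 4905158 to 4910946 (plus strand). Some cathepsin counts may be shared with genes that overlap them, since the kit kept the strand of the RNA but the sources do not state whether the counting used it. *Ctsa* overlaps *Pltp* on the opposite strand, which had 1208 to 1617 counts in WT and 3418 to 3832 in cKO, where *Ctsa* had 15612 to 20921. *Ctsb* overlaps *Fdft1* (1752 to 2095 counts) and *Ctsz* overlaps *Nelfcd* (1082 to 1351 counts), both on the opposite strand. For *Ctss*, *Ctsl* and *Ctsd* the overlapping genes had at most 27 counts, and for *Ctsc*, *Ctsf*, *Ctsh* and *Ctsk* none was listed.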

How the data were processed

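The authors trimmed the 150 bp paired-end reads, aligned them to GRCm39 (mm39) with HISAT2 2.0.5 and counted them on genes with featureCounts (1.55.0-p3 per the labels, whereas the methods name another release). The authors deposited raw counts per gene for the 6 libraries, not normalized, with each gene's length and coordinates. Fold changes with their standard errors, and p-values, were taken from edgeR 4.0.16, run on these counts in R 4.3.3 (filterByExpr, TMM, glmQLFit without robust estimation, glmQLFTest, genotype as the only term), adjusted by the Benjamini-Hochberg method over 17146 genes. CPM use TMM-scaled library sizes, and TPM the deposited lengths over all genes. A gene with 3 counts or fewer in every library of a group was at the floor, which covers counting error only.

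The cathepsins, the gene lists and the motifs were chosen with earlier results of these data known. The genes named are the cathepsins, of each list the 4 with the smallest p-values in each direction or all of a list of 5 or fewer, the neighbours within 250 kb, the 5 nearest in pattern, and the checks of the labels. Genes that overlap a cathepsin and markers at or near 0 were added after their values were seen. A gene that this rule would name is not reported here. On simulated counts for 17146 genes with 200 changed, 173 were recovered and 5 unchanged genes called. All planted changes were larger than the limit of 1 on the log2 scale and were scored with that limit. The simulation therefore does not cover smaller differences. The 14 alternatives were DESeq2 1.42.0, RLE or no composition scaling, other filters, replicate number as a block, robust estimation, halved counts and each library left out in turn. Replicates differed by more than sampling noise, so all 6 libraries were kept. Columns of gene length and position were used as given.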

Additional observations from a re-analysis of the deposited data

How the results depend on the processing

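The log2 fold changes of the 10 cathepsins kept their sign in all 14 alternatives, which is a description, since this contrast helped to choose the set. Of all recomputed values 466 stayed close to the reported one and 17 moved. Of the other cathepsin genes 0 passed lower, but 1 (*Ctsw*) did with DESeq2, with at least 10 counts in every library, with robust estimation and with counts halved, and 0 to 1 with each library left out (1 without WT replicate 2 and without cKO replicate 3). Inhibitors that passed lower numbered 4, 2 with at least 10 counts in every library, and 2 to 4 with each library left out. With each library left out, 1 to 2 sorting genes passed lower (1 without cKO replicate 1 or 3), 1 to 2 genes of the list of other lysosomal proteases passed lower (2 without WT replicate 3), and 4 to 7 neighbours of *Ctss* and *Ctsk* passed higher and 1 to 3 lower. The ratio of the summed cathepsins was 1.89 in CPM in place of 2.01 in TPM. The cause of these shifts was not tested.

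With a replicate block the cathepsins called higher were again 4 and *Ctss* had a log2 fold change of 3.17, inhibitors passed lower numbered 3 and neighbours passed higher 6 and lower 2, while no count moved by over 1.5 times. Libraries with the same number did not deviate together, with correlations from -0.014 to 0.0012. Pairs with different numbers gave -0.015 to 0.015. This check cannot show whether libraries of the same number were prepared together. No scaling moved the median of all genes by over 0.022 on the log2 scale. Depth limits the genes at low counts, such as *H2-DMb2* with 0 to 26 counts a library and a standard error of 0.79, or *Ctsw* with 46 to 107 counts and 0.27.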
